A study of Mus musculus with 5 samples.

Results

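The dystrophin glycoprotein complex ties the cytoskeleton of a muscle fiber to the laminin of its basement membrane. The 9 genes described here are 8 genes of this complex (Dmd, Utrn, Dag1, Sgca, Sgcb, Sgcd, Sgce and Sspn) and Lama2, the laminin chain it binds. They were chosen by name, among 54232 genes listed, and are set beside Dysf, the gene of dysferlin. RNA was sequenced from WT (n = 3) and Elmo2EID/EID (n = 2) primary myoblasts, muscle precursor cells from leg muscles of young mice on a mixed C57BL6 and 129SV background, enriched with magnetic beads and integrin alpha-7 antibodies. Both groups were kept for 72 h in low-serum medium, in which myoblasts leave the cell cycle and fuse into multinucleated myotubes. Elmo2EID carries a point mutation in the autoinhibitory EID of ELMO2, a scaffold that brings DOCK1 to RAC1, and the mutation was designed to hold ELMO2 open. It was knocked into the endogenous locus, with no Cre, so that all cells of these mice carry it. The labels give no sex and do not say whether each sample came from its own mouse, so p-values measure only the spread between these samples.

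Inside the cell, dystrophin, the product of Dmd, binds actin and the beta chain of dystroglycan, and utrophin is its autosomal relative. Dag1 encodes both chains of dystroglycan, and the alpha chain, once glycosylated, holds laminin. Sarcoglycans (Sgca, Sgcb, Sgcd and, in many tissues, Sgce) and sarcospan (Sspn) form a side group in the membrane that steadies this link. Loss of dystrophin causes Duchenne muscular dystrophy, loss of a muscle sarcoglycan causes limb-girdle dystrophies, and loss of LAMA2 causes a congenital dystrophy. Dysferlin is not a subunit of the complex. It takes part in resealing the membrane after injury, and its loss causes another limb-girdle dystrophy.

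Sspn was the only one of the 9 genes called different between the genotypes, and Elmo2EID/EID myoblasts had 1.28 times the WT level of it. The same test called 2.23% of all genes, and the call of Sspn was lost in 9 of 15 alternative analyses, among them each with 1 sample left out. The other 8 did not pass the test, and the ends of their 95% intervals lay between 0.646- and 1.62-fold. Dysf, in contrast, rose 2.49-fold, and each of the 9 genes was called lower relative to Dysf, as were 84.7% of all genes tested. Dmd, Utrn and Dag1, the core of the complex, had fold changes of 1.16, 1.11 and 0.944, with intervals that included 1.

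The values are normalized counts, the reads of a gene divided by a size factor for the sample. Recovered totals ran from 35021856 to 49381544 reads per sample, and every value of the 9 genes rested on at least 235 reads. The 9 genes made up 0.295% to 0.323% of all reads per sample. A fold change compares Elmo2EID/EID with WT after adding 1 to each normalized count and taking log2. It was tested with limma for 18156 genes, those that reached 5 normalized counts in any sample, and adjusted p-values (Benjamini-Hochberg) come from that test unless another is named. All 9 genes passed this filter. Limma called 404 of the 18156 genes (2.23%), and 1.09% of the genes were called higher. Elmo2 itself had 1539 to 1660 normalized counts in WT and 1327 to 1441 in Elmo2EID/EID samples (log2 fold change -0.22, adjusted p = 0.226). The mutation changes a codon, and the RNA level of Elmo2 is therefore no check of the genotype labels.

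The labelled cell type was checked with 10 genes of myoblasts and myotubes, none of which was called. Their summed level ran from 1866888 to 2142463 normalized counts in WT samples and from 1823588 to 2223291 in Elmo2EID/EID samples. Genes of other cells were far lower, though not at 0. The sum over 12 endothelial genes was 852 to 2377 in WT and 4380 to 6464 in Elmo2EID/EID samples. Of these genes, 11 were higher on average in Elmo2EID/EID samples, none called, and the lowest sum was that of WT replicate 2. Genes of fibro-adipogenic progenitors summed to 12293 to 28124 in WT and 13758 to 19460 in Elmo2EID/EID samples, with 6 of 8 tested above 0, none called, and Lum at or under the floor of 3 reads. Macrophage genes summed to 75.8 to 101 in WT and 123 to 134 in Elmo2EID/EID samples, with 4 of 4 tested above 0, none called, and Ptprc and Cx3cr1 at or under the floor. Schwann cell genes summed to 16180 to 17118 and 15525 to 15807, mostly from Erbb3, with 0 of 8 called. In 7 of these 8 genes the log2 fold change was above 0, although the sum was lower in Elmo2EID/EID samples. Pericyte genes summed to 240015 to 245019 in WT and 221504 to 224287 in Elmo2EID/EID samples, almost all from Des, which myotubes make, and 2 of 8 tested (Rgs5 and Notch3) were called lower, with Kcnj8 at or under the floor. Whether these other cells had a part in the values of the complex genes was not tested.

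Promoters are printed for Sspn, the only member called, for Dysf, and for Dmd and Lama2, the members whose window held a CArG box, the site of serum response factor. The sequences run from 250 bases before to 50 bases after the first RefSeq start of the gene on GRCm38.p6, 5′ to 3′ on the strand of the gene. Capitals mark matches to the E-box CANNTG, to which MYOD1 and myogenin bind, and to the CArG box, both searched on both strands. The windows lie at chr6:145931623-145931922 (+) for Sspn, chr6:84008348-84008647 (+) for Dysf, chrX:82948620-82948919 (+) for Dmd and chr10:27616893-27617192 (-) for Lama2.
Sspn: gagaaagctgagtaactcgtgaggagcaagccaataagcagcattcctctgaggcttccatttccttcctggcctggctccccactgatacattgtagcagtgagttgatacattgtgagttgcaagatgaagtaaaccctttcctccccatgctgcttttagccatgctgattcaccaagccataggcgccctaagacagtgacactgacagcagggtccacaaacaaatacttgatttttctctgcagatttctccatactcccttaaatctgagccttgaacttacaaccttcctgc
Dysf: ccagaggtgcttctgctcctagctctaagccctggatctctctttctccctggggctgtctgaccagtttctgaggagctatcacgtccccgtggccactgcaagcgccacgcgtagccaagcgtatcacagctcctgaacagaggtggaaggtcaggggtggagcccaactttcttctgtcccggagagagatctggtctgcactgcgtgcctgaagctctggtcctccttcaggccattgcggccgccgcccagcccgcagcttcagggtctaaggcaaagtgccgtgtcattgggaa
Dmd: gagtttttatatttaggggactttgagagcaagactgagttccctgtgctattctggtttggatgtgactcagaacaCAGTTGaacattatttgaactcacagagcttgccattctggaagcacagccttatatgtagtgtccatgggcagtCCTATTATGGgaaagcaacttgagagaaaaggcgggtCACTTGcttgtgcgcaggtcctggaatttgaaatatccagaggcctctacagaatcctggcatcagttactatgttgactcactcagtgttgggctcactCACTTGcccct
Lama2: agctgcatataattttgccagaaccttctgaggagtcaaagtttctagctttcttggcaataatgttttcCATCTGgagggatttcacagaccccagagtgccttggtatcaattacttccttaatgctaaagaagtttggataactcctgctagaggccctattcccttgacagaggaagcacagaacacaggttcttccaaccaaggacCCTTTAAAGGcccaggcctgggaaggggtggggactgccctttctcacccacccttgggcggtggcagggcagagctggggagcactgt
The Dmd window held 3 E-boxes and 1 CArG box, and 17.6% of the 32851 windows of all genes held at least 3 E-boxes. In Lama2, 1 E-box and 1 CArG box were found. Neither motif was in the windows printed for Sspn and Dysf, while a second RefSeq window of each gene, not printed, held 1 E-box. A second RefSeq window of Dmd, also not printed, held neither motif. Of the 9 genes, 8 had a window (Sgce was not matched), and 6 of these 8 first windows held an E-box, against 72.3% of all windows. A CArG box was in 2 of the 8, against 1.63% of all windows. A MEF2 site was in 0 of the 8, against 0.557% of all windows. These matches describe letters in the windows and show no binding.

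Dmd, on chromosome X (82948870 to 85206141, + strand, GRCm38), had 21460, 26404 and 21588 normalized counts in WT replicates 1, 2 and 3 and 25454 and 28229 in Elmo2EID/EID replicates 1 and 2. Both Elmo2EID/EID values were above the lower pair of WT samples, but WT replicate 2 lay between them, so the groups overlapped. The means were 23151 ± 2818 (SD, n = 3) and 26841 ± 1963 (SD, n = 2). For Dmd the log2 fold change of 0.22 carried a standard error of 0.11 (adjusted p = 0.411), and the 95% interval ran from 0.972- to 1.39-fold. In bulk RNA, a change in the share of myotubes and a change in RNA per cell cannot be told apart.

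Utrn (chromosome 10, 12382188 to 12869365, - strand) had 20572, 23044 and 19409 normalized counts in WT and 21723 and 24833 in Elmo2EID/EID samples. As for Dmd, the highest values were those of Elmo2EID/EID replicate 2 and WT replicate 2, and the groups overlapped. Utrn changed by 0.15 ± 0.10 on the log2 scale (standard error), which did not pass (adjusted p = 0.54), with an interval from 0.944- to 1.30-fold. The ratio of Utrn to Dmd, which sets the relative against dystrophin itself within each sample, was 0.959, 0.873 and 0.899 in WT samples, and Elmo2EID/EID samples had 0.853 and 0.880. These ratios overlapped too, and their log2 difference of -0.07 had an exact permutation p of 0.4, where the sample numbers allow none below 0.1.

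Dag1 (chromosome 9, 108204634 to 108263958, - strand) was the most abundant member, with 53067, 59331 and 59654 normalized counts in WT samples and 60126 and 48580 in Elmo2EID/EID samples. The Elmo2EID/EID samples were the highest and the lowest of the 5. Its log2 fold change, -0.08 with a standard error of 0.11 (adjusted p = 0.787), had an interval from 0.786- to 1.13-fold, and was 0.07 without Elmo2EID/EID replicate 2.

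Of the sarcoglycans, Sgca (chromosome 11, 94962791 to 94976327, - strand), the alpha subunit made in striated muscle, had 4229, 4632 and 4219 normalized counts in WT and 4423 and 4688 in Elmo2EID/EID samples. Of the 9 genes it had the smallest difference between the genotypes, at 0.06 on the log2 scale (standard error 0.07, adjusted p = 0.735), with an interval from 0.932- to 1.17-fold. Sgcb (chromosome 5, 73632749 to 73647790, - strand), the beta subunit, had 9642, 10365 and 9311 normalized counts in WT and 10662 and 10480 in Elmo2EID/EID samples. The groups did not overlap for Sgcb, yet the difference did not pass the test (log2 fold change 0.11, standard error 0.07, adjusted p = 0.486, interval 0.969- to 1.21-fold).

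Sgcd and Sgce were the scarce members. Sgcd (chromosome 11, 46896253 to 47988969, - strand), the delta subunit, had 573, 784 and 630 normalized counts in WT and 834 and 821 in Elmo2EID/EID samples. Again the groups did not overlap, but WT replicate 2 lay closer to the Elmo2EID/EID samples than to the other WT samples. Sgcd was 0.33 ± 0.14 higher on the log2 scale (standard error), with an adjusted p of 0.318 and an interval from 1.00- to 1.58-fold. Sgce (chromosome 6, 4674350 to 4747207, - strand), the epsilon paralog of Sgca found in many tissues, had 342, 264 and 347 normalized counts in WT and 285 and 245 in Elmo2EID/EID samples. WT replicate 2 lay between the Elmo2EID/EID samples, and the change of -0.25 ± 0.16 on the log2 scale (standard error) did not pass (adjusted p = 0.518, interval 0.646- to 1.09-fold). The ratio of Sgce to Sgca was 0.0809, 0.0569 and 0.0822 in WT samples, and Elmo2EID/EID samples had 0.0645 and 0.0522 (log2 difference -0.32, exact permutation p = 0.3).

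Sspn (chromosome 6, 145931641 to 145965223, + strand) encodes sarcospan, a tetraspanin-like membrane protein that sits with the sarcoglycans. It had 6172, 5743 and 6039 normalized counts in WT and 7767 and 7513 in Elmo2EID/EID samples. Both Elmo2EID/EID samples lay above every WT sample, by more than the whole WT range. The means were 5985 ± 220 (SD, n = 3) and 7640 ± 180 (SD, n = 2). Sspn rose by 0.35 ± 0.06 on the log2 scale (standard error, adjusted p = 0.0412), with an interval from 1.15- to 1.41-fold. In limma the call is close to the threshold. With recovered reads, the adjusted p was 0.0434 by edgeR's quasi-likelihood test (1.12% of genes called higher) and 0.000125 by DESeq2 (2.27% called higher). Without any 1 of the 5 samples the log2 fold change stayed between 0.32 and 0.38, but the adjusted p was 0.0736 to 0.235. The call was also lost with equal totals (adjusted p = 0.0611), with no filter on low values (0.101) and in limma without the trend (0.185). The antisense gene Sspnos, which shares exon sequence with Sspn, had 15.2 to 27.7 normalized counts (adjusted p = 0.938), and the authors counted by strand.

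Lama2 (chromosome 10, 26980036 to 27619758, - strand), the alpha chain of the laminin of muscle basement membrane, had 11330, 8876 and 9984 normalized counts in WT and 10904 and 14717 in Elmo2EID/EID samples. Elmo2EID/EID replicate 2 stood above all other samples and Elmo2EID/EID replicate 1 lay within the WT range. Lama2 was 0.34 ± 0.15 higher on the log2 scale (standard error), with an interval from 0.990- to 1.62-fold and an adjusted p of 0.351. It was 0.12 without Elmo2EID/EID replicate 2 and 0.56 without Elmo2EID/EID replicate 1, and neither passed. The fibro-adipogenic progenitor genes had mean log2 levels of 7.04, 5.57 and 6.51 in the WT samples, and of 6.32 and 7.20 in the Elmo2EID/EID samples. By this measure they were, like Lama2, highest in Elmo2EID/EID replicate 2, next in WT replicate 1 and lowest in WT replicate 2. Their sum was instead highest in WT replicate 1 (28124 normalized counts), then in Elmo2EID/EID replicate 2 (19460), and lowest in WT replicate 2 (12293). Their part in the values of Lama2 was not tested.

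**Figure D1:**
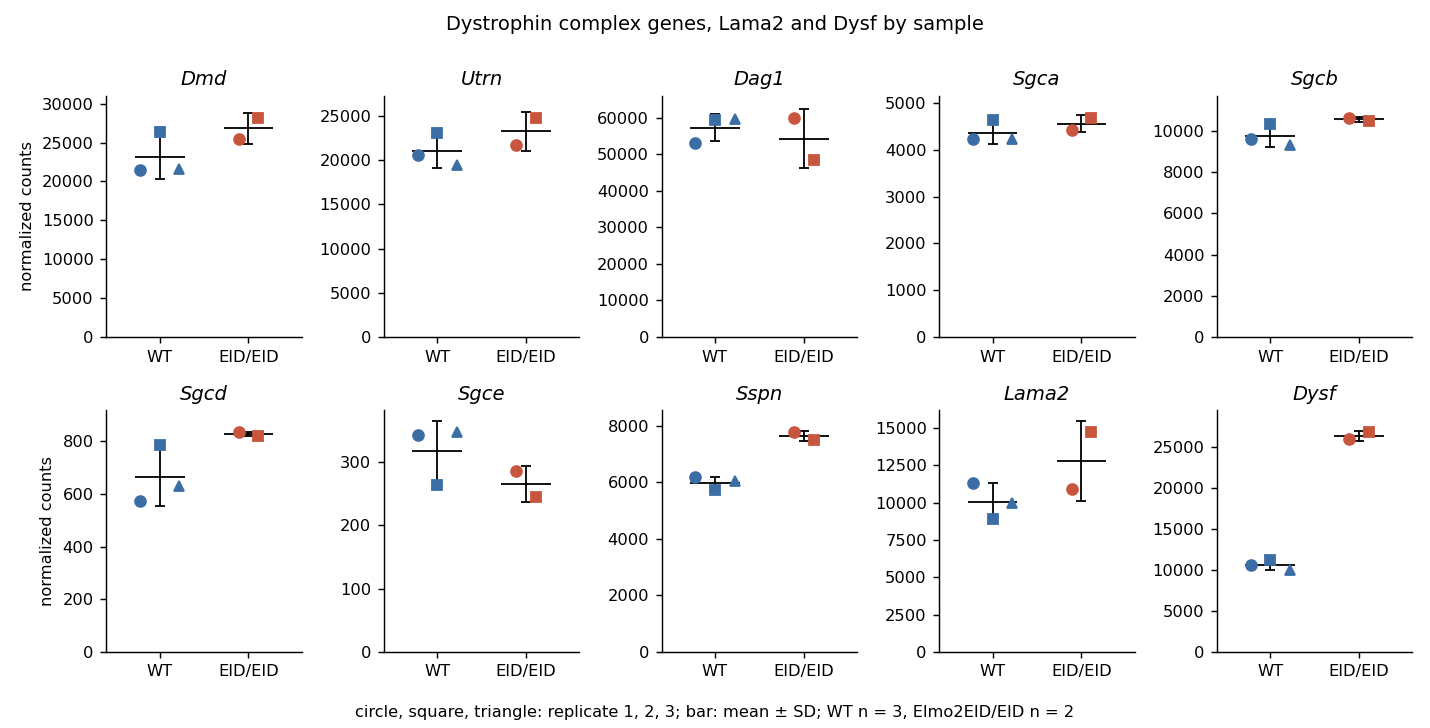
Normalized counts (vertical axes, from 0) of the 9 genes and Dysf in WT (n = 3) and Elmo2EID/EID (n = 2) samples, with symbols for replicates and bars for the mean ± SD. The groups overlap for 6 members and are apart for Sgcb, Sgcd, Sspn and Dysf.

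Dysf (chromosome 6, 84008590 to 84211060, + strand) had 10596, 11201 and 9953 normalized counts in WT and 25968 and 26828 in Elmo2EID/EID samples. The groups were far apart, 1.32 ± 0.07 on the log2 scale (standard error, adjusted p = 5.95e-04), with an interval from 2.22- to 2.81-fold. All 9 members had an interval whose upper end (at most 0.69 on the log2 scale) was below the lower end of that of Dysf. In a limma fit of the difference between each gene and Dysf within a sample, all 9 members were lower, with differences from -0.97 for Sspn to -1.57 for Sgce and adjusted p-values from 5.83e-06 to 3.78e-04. That is common to most genes, as the share over all genes given above shows, and all of these tests share the Dysf values. Dmd had 2.03, 2.36 and 2.17 times the normalized counts of Dysf in WT samples and 0.980 and 1.05 times in Elmo2EID/EID samples. The groups did not overlap in this ratio (log2 difference -1.10), and its exact permutation p of 0.1 is the smallest possible. Adjusted over the 3 ratios tested, the p-values were 0.4 for Utrn to Dmd, 0.4 for Sgce to Sgca and 0.3 for Dmd to Dysf.

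**Figure D2:**
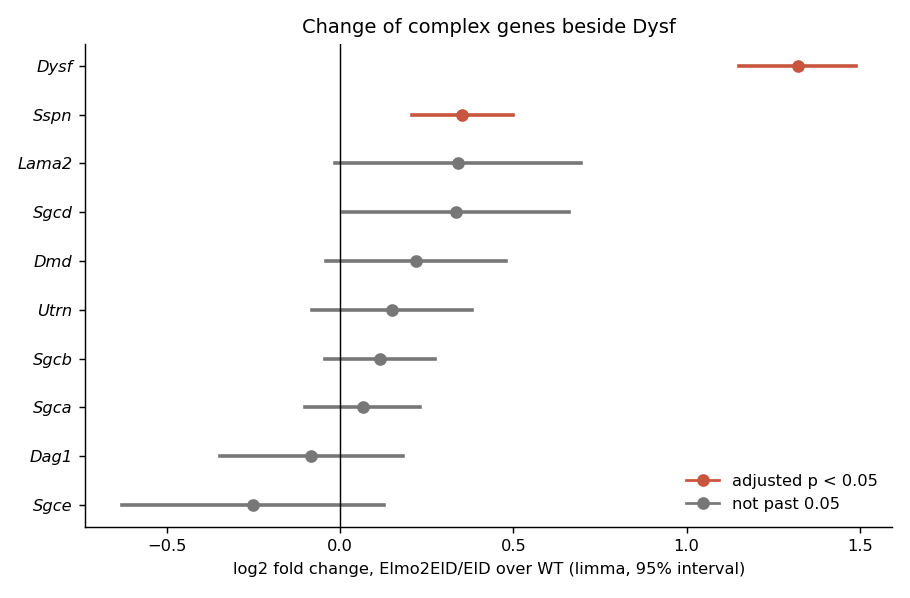
Log2 fold change of Elmo2EID/EID over WT (horizontal axis) with its 95% interval from limma for the 9 genes and Dysf, in color where the adjusted p was under 0.05. Sspn at 0.35 and Dysf at 1.32 are past the threshold, and no member interval reaches that of Dysf.

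**Figure D3:**
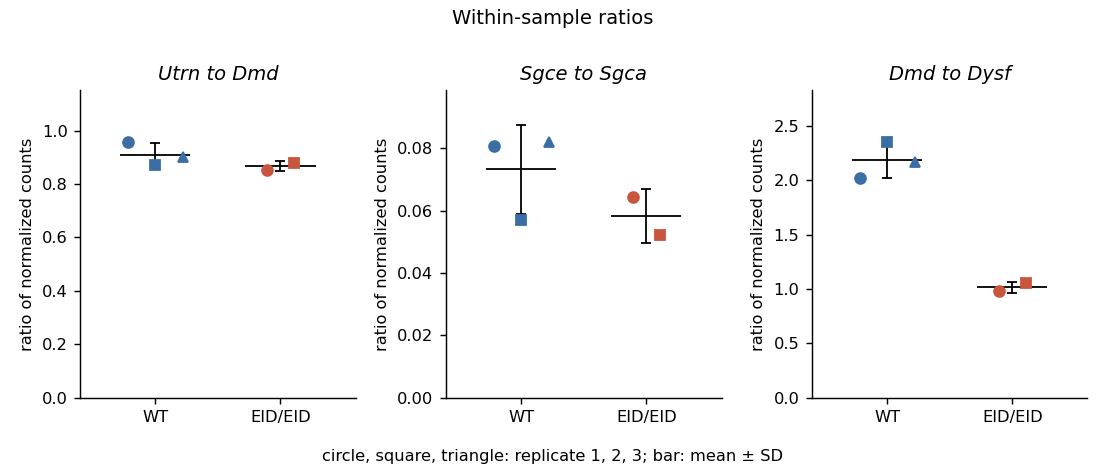
Within-sample ratios of normalized counts (vertical axes, from 0) for Utrn to Dmd, Sgce to Sgca and Dmd to Dysf, with a symbol for each replicate and bars for the mean ± SD. The first 2 ratios overlap between the genotypes, and Dmd to Dysf is 2.03 or above in WT and 1.05 or below in Elmo2EID/EID samples.

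As a group, 7 of the 9 members had a log2 fold change above 0 and 2 below, where 52.1% of all genes tested were above 0. Their median log2 fold change was 0.15, beside 0.01 for all genes tested, for which the middle 50% lay between -0.16 and 0.16. For 3 members both Elmo2EID/EID samples were above every WT sample, and for none were both below, where 16.7% of all genes were higher without overlap and 32.6% did not overlap in either direction. An unadjusted p under 0.05 was given to 2 members, Sspn and Sgcd, where 15.2% of all genes had one. WT replicate 2 had the highest WT value for 5 members (Dmd, Utrn, Sgca, Sgcb and Sgcd) and the lowest for 3 (Sgce, Sspn and Lama2). Among all genes it was highest in 33.5% and lowest in 33.5%. The myoblast and myotube genes were also highest in WT replicate 2 among WT samples, at 2142463 normalized counts in sum, and lower in WT replicates 1 and 3, at 1967473 and 1866888. Their sum was 2223291 in Elmo2EID/EID replicate 2 but 1823588 in Elmo2EID/EID replicate 1, the lowest of all samples. In that sample Dmd, Utrn, Sgca, Sgcb and Sgcd were above WT replicates 1 and 3, so they did not follow this sum. Whether myotube content had a part in their values was not tested. The log2 fold change of Dmd was 0.32 without WT replicate 2 (adjusted p = 0.194) and 0.14 without Elmo2EID/EID replicate 2 (adjusted p = 0.786).

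Of the other 8 members, 4 varied across the 5 samples much as Dmd did, and the other 4 did not. The Pearson correlation of log2 values with Dmd, given as a description over 5 samples, in which all genes share the same libraries and genotypes, was 0.973 for Sgca, 0.948 for Utrn, 0.926 for Sgcd and 0.890 for Sgcb. It was 0.508 for Sspn, 0.359 for Lama2 and -0.301 for Dag1. Sgce had -0.996, the lowest of 10793 protein-coding genes whose mean reached 100 normalized counts, and its samples stood in nearly the reverse order of those of Dmd. The genes most correlated with Dmd were Cln3 (0.997), Gstz1 (0.995) and Ubr3 (0.994), and 73 genes had a correlation above 0.95. A correlation does not take the size of a change into account. Cln3 ran only from 162 to 174 normalized counts over the 5 samples, beside 21460 to 28229 for Dmd. Dysf had 0.724.

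Levels were compared between genes per kilobase of annotated exon. In WT samples Dag1 had 9022 normalized counts per kilobase on average, then Sgca 2513, Sgcb 2412, Utrn 1228, Sspn 1198, Dmd 973 and Lama2 616. The least abundant were Sgcd at 80.2 and Sgce at 29.9 per kilobase. Sgca and Sgcb overlapped in their sample values, as did Utrn and Sspn, while Sspn and Dmd did not. Dysf had 1271 per kilobase in WT, near Utrn, and 3170 in Elmo2EID/EID samples, above all members but Dag1. With the length of the longest protein-coding transcript in place of the exon union, a choice made after the data were seen, Sgcb stood above Sgca and Dmd above Sspn, and Sgcd and Sgce had 270 and 179. Of the 9 genes, 4 (Dmd, Sgcd, Lama2 and Utrn) were among the longest 10% of the 14339 protein-coding genes tested, whose median length was 24524 bases. Dmd spans 2257272 bases, and 2 genes tested were longer.

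**Figure D4:**
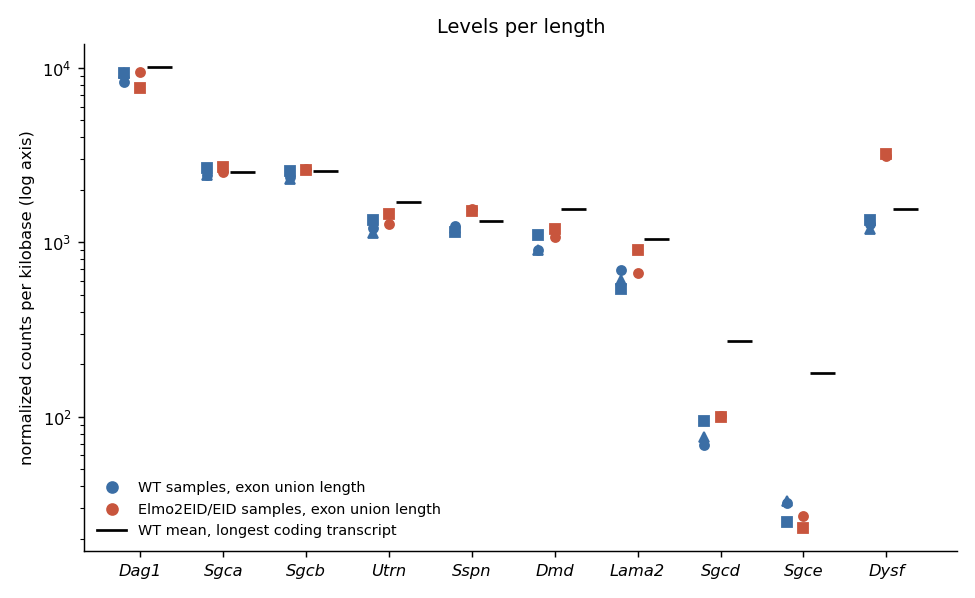
Normalized counts per kilobase of exon (log axis) of the 9 genes and Dysf, with points for WT and Elmo2EID/EID samples and a line for the WT mean when the longest protein-coding transcript gives the length. Dag1 is highest at 9022 and Sgce lowest at 29.9 in WT, and Dysf moves from 1271 to 3170.

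The other genes of the pathway were taken as 5 lists of 60 genes, of which 58 were tested. None was called by limma or by edgeR, and 29 of the 58 had a log2 fold change above 0 and 29 below. An unadjusted p under 0.05 was given to 8 of the 58, beside 15.2% of all genes tested, and 15 did not overlap between the groups, 8 higher and 7 lower, beside 32.6% of all genes. Neither count stood above that background. DESeq2 called 4 of the 58, Agrn, Synm, Lama4 and Vcl, near its share over all genes (5.34%). The last was named after its values were seen.

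Among 13 other subunits and partners, 11 were tested (Sgcz and Sntg2 had at most 1 read in a sample), 7 were above 0 and 4 below, and the median log2 fold change was 0.02. Nos1, the neuronal nitric oxide synthase that syntrophin brings to the complex, had 899, 1532 and 680 normalized counts in WT and 777 and 155 in Elmo2EID/EID samples. Elmo2EID/EID replicate 2 was far below the rest, and the log2 fold change of -1.49 had an adjusted p of 0.349. Dtna and Dtnb encode the dystrobrevins, and their log2 fold changes were 0.20 (adjusted p = 0.315) and -0.25 (adjusted p = 0.649). Sntb1, a syntrophin, was at 0.02 (adjusted p = 0.907).

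The 18 genes that make or attach the laminin-binding sugar of dystroglycan had a median of -0.05, with 7 above 0 and 11 below. Pomgnt2, an early glycosyltransferase of the pathway, was at -0.26 (adjusted p = 0.383). Pomgnt1, another glycosyltransferase of the pathway and abundant in this list, was at -0.12 (adjusted p = 0.419).

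In the basement membrane list, 13 genes had a median of -0.04, with 6 above 0 and 7 below. Lama4, a laminin chain also made by blood vessels, had 66.3, 29.2 and 132 normalized counts in WT and 240 and 236 in Elmo2EID/EID samples. The groups did not overlap, WT replicate 2 was lowest and WT replicate 3 highest within WT, and the log2 fold change of 1.89 had an adjusted p of 0.172. The sum of the endothelial genes was also lowest in WT replicate 2 and higher in both Elmo2EID/EID samples, and its part in Lama4 was not tested. Agrn, the proteoglycan that dystroglycan binds at the nerve-muscle junction, had 1346, 1352 and 1683 normalized counts in WT and 1984 and 1947 in Elmo2EID/EID samples (log2 fold change 0.44, adjusted p = 0.115). Hspg2 (perlecan) was at 0.18 (adjusted p = 0.736) and Col4a1 at -0.15 (adjusted p = 0.828). Without WT replicate 3, 1.85% of all genes were called, Agrn, Lama4 and Nid2 among them, and without any other single sample none of the 13 was. Nid2 (nidogen 2), named for that call, was at -0.39 with all samples (adjusted p = 0.368), and its groups overlapped.

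Laminin-binding integrins offer muscle another link to laminin. Their list holds 6 genes, among them Bcam and Itgb1bp2, which do not encode integrins. It had a median of -0.04, with 3 above 0 and 3 below. Itga7, whose protein was also the target of an antibody used to enrich the cells, had 35837, 40757 and 35201 normalized counts in WT and 32027 and 30620 in Elmo2EID/EID samples, without overlap (log2 fold change -0.25, adjusted p = 0.231). Its partner Itgb1 was at 0.07 (adjusted p = 0.831), and Itga3 at 0.25 (adjusted p = 0.582).

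For 10 cytoskeletal linkers the median was 0.05, with 6 above 0 and 4 below. Synm, an intermediate filament protein, came nearest to the threshold of the 58 genes. It had 283, 362 and 313 normalized counts in WT and 469 and 469 in Elmo2EID/EID samples (log2 fold change 0.56, adjusted p = 0.0883). Des, the intermediate filament protein of muscle, was at -0.12 (adjusted p = 0.563) and Flnc, an actin crosslinker, at 0.03 (adjusted p = 0.948).

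**Figure D5:**
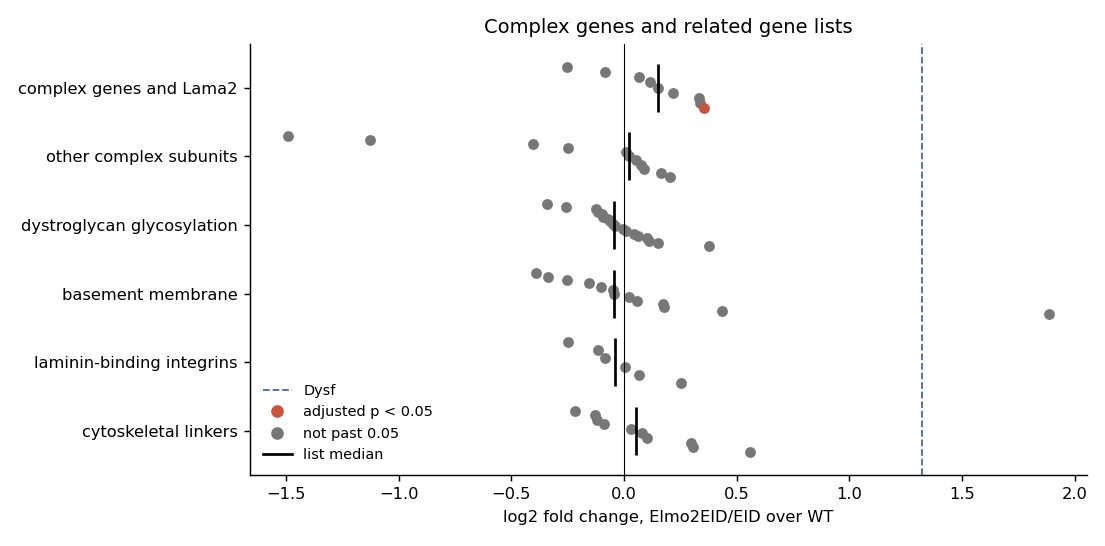
Log2 fold change of Elmo2EID/EID over WT (horizontal axis) of each tested gene of the complex and of the 5 related lists, 1 point per gene, with a dashed line at the value of Dysf, 1.32. Sspn is the only point past the threshold, and Nos1 at -1.49 and Lama4 at 1.89 lie farthest from 0 without passing it.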

How the data were processed

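RNA sequencing of WT (n = 3) and Elmo2EID/EID (n = 2) myoblasts was analyzed, with groups taken from the sample labels. The authors selected poly-A RNA, aligned reads to GRCm38 with STAR 2.5.1b, counted them by strand with featureCounts 1.4.6, and deposited for each gene a signal, the count divided by the DESeq2 1.34.0 size factor of the sample. Their table was the only input, and each positive value (100.0%) was a whole number of reads within 0.01, so reads were recovered for edgeR and DESeq2. The floor was set at 3 reads, which are 2.65 to 3.73 normalized counts.

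Log2(normalized count + 1) was tested with limma 3.58.1 (two-sided, eBayes with trend, no replicate block, Benjamini-Hochberg adjustment, threshold 0.05). Alternatives were other pseudocounts, filters and scalings, edgeR 4.0.16, DESeq2 1.42.0, no trend, a replicate block, and leaving out each sample. Replicates differed by more than sampling noise (chi-square per degree of freedom 26.6 to 37.8). Symbols and lengths came from GENCODE M21 (54165 of 54232 identifiers matched) and promoters from RefSeq. Named genes were the members, Dysf, Elmo2, from each list the 2 highest means and, where the mean reached 100 normalized counts, the 2 largest changes, and the 3 genes most correlated with Dmd. Some genes this rule takes are not reported here. The members and lists were chosen with earlier results of these data known.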

Additional observations from a re-analysis of the deposited data

How the results depend on the processing

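Sspn kept its direction under all 15 alternatives (log2 fold change 0.32 to 0.38) and passed the threshold in 6 of them: pseudocounts of 0.5 and 5, a mean of at least 10 normalized counts, quantile normalization, edgeR and DESeq2. It did not pass with no filter (0.35), equal totals (0.34), limma without the trend (0.35), the replicate block (0.36) or any 1 sample left out (0.32 to 0.38), which leaves 0 members called in each case. The cause was not tested. Dag1 changed sign without Elmo2EID/EID replicate 2 (0.070), within a range of -0.24 to 0.070 over the samples left out. The other 7 members kept their direction and passed in none of the 15, and Dysf passed in all 15 (1.28 to 1.36). With 1 sample left out, log2 fold changes ran from 0.14 to 0.32 for Dmd, 0.05 to 0.24 for Utrn, 0.02 to 0.11 for Sgca, 0.08 to 0.16 for Sgcb, 0.23 to 0.46 for Sgcd, -0.38 to -0.14 for Sgce and 0.12 to 0.56 for Lama2. All 9 members were lower relative to Dysf in the 13 alternatives run, as 84.7% of all genes were in the fit reported.

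The count over all genes was 404, and 155 with no filter, 144 without the trend, 969 by DESeq2 and 34 to 335 with 1 sample left out. In the basement membrane list, 0 genes were called, and 2 by DESeq2, 2 with the block (Lama4 and Nid2) and 0 to 3 with 1 sample left out. Of the cytoskeletal linkers DESeq2 called 2.

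Under the replicate block, 224 of all genes were called, and Sspn had an adjusted p of 0.13. The 2 pairs share only a number: the difference between replicates 1 and 2 had a correlation of -0.201 between the genotypes over 15107 genes, which are not independent replicates.

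With 2 Elmo2EID/EID samples, leaving out 1 assumes that the other varies like WT, and the exact tests could not go below 0.1. For the 8 members not called, the test does not show that the genotypes are alike. The lengths used per kilobase were varied after seeing the data.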
